A study of Homo sapiens with 30 samples.

Results

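ABC drug efflux transporters and the xenobiotic receptor PXR were examined as a group of 9 genes, taken by name from the 60675 genes of an expected-count table: ABCB1, ABCC1, ABCC2, ABCC3, ABCC4, ABCC5, ABCG2, NR1I2 and CYP3A5. All 9 were measured, and all 9 passed the filter on low counts, which left 18783 genes for testing. Messenger RNA had been sequenced from HT29, an established line from a human colorectal adenocarcinoma. The cells had been kept for 24 h with a 70% ethanol extract of 1 of 4 Korean herbal formulas, or with solvent alone. Bojungikgi-tang and Sayeok-tang each had 3 libraries at 500, 100 and 20 µg/mL, Banhasasim-tang had 2 at each dose (replicates 2 and 3), Yijung-tang had 1 at each dose (replicate 3) and the vehicle had 3, which makes 30 libraries. DMSO in the vehicle is 0.1% by its label but 2% by the text of the series. For extracts whose 20% inhibitory concentration lay below 500 µg/mL, that text describes lower doses, whereas the labels give 500, 100 and 20 µg/mL throughout and were followed. The titles of all 30 samples, the vehicle included, name the same batch, BatchE. The sample codes differ within it. Banhasasim-tang shares a code series with Yijung-tang, Bojungikgi-tang shares another with Sayeok-tang, and the vehicle has its own code. Code and treatment therefore cannot be told apart against the vehicle, or between Banhasasim-tang and Bojungikgi-tang or Sayeok-tang. The labels do not state whether the replicates of this 1 line were grown separately, so p-values cover only the spread among these libraries, which may be technical. In bulk samples, fewer cells of a type and less RNA per cell cannot be told apart.

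ABC transporters use ATP to move molecules across membranes, and those named here carry drugs, conjugates and metabolites out of cells. ABCB1 (P-glycoprotein), ABCG2 (breast cancer resistance protein) and ABCC2 (MRP2) sit on the lumen-facing membrane of intestinal epithelium. ABCC1 (MRP1) and ABCC3 (MRP3) face the blood side, ABCC4 (MRP4) carries cyclic nucleotides and conjugates, and ABCC5 (MRP5) carries nucleotide analogues. NR1I2 encodes PXR, a nuclear receptor that binds drugs and plant compounds and induces CYP3A enzymes and ABCB1, and CYP3A5 is 1 of those drug-oxidising enzymes. The receptor AhR, through the DNA core GCGTG, and the stress-activated factor NRF2, through the core TGACNNNGC, also induce genes of drug disposal.

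Promoter windows of ABCG2 and ABCC5 are shown because these were the members that lay above the vehicle in every extract library. The windows come from RefSeq (build GRCh38.p14), run from 250 bases before to 50 bases after a transcription start, and were found for 7 of the 9 members, in 13 windows. Both strands were searched for TGACNNNGC and GCGTG, and matches are in capitals, with CACGC being GCGTG read on the opposite strand. The minus-strand regions are chr4:88159241-88159540 and chr4:88158860-88159159 for ABCG2, at 2 of its alternative starts, and chr3:184017835-184018134 for ABCC5. Upstream and downstream below refer only to these 2 ABCG2 windows. Other ABCG2 windows lay further upstream (chr4:88231577-88231876, with neither motif) and further downstream (chr4:88158590-88158889, with GCGTG).
ABCG2 upstream start: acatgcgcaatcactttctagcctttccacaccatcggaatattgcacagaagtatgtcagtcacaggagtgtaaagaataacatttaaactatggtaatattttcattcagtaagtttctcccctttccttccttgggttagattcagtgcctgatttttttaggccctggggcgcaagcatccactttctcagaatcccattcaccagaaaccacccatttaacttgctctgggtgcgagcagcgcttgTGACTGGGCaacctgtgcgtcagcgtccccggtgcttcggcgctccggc
ABCG2 downstream start: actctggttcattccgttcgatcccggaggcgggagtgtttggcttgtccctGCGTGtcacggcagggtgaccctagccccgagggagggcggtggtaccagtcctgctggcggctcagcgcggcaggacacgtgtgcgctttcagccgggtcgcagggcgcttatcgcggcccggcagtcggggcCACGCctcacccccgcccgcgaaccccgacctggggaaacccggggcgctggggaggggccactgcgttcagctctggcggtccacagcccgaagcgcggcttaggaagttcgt
ABCC5: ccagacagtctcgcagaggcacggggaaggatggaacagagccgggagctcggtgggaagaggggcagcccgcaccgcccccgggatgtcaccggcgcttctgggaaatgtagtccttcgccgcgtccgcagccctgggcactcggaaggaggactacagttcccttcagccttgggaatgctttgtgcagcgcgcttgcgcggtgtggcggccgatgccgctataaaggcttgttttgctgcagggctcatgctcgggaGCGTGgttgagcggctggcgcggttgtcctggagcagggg
The first ABCG2 window held TGACNNNGC from base 2 after the start, the second held GCGTG 2 times, and the ABCC5 window held GCGTG from base 11. Of all 35116 windows in the table, 13.3% held TGACNNNGC and 36.5% held GCGTG. Among the members, 2 of the 13 windows held TGACNNNGC (ABCG2 and ABCC4) and 6 held GCGTG (ABCG2, ABCC5, ABCC4 and ABCB1), and no 2 matches of the different motifs overlapped. Overlapping ABCG2 windows hold the same GCGTG matches, so these letters are counted more than once. Counted by gene, 2 of the 7 members with a window held TGACNNNGC and 4 held GCGTG. Over all 27305 genes these shares were 16.1% and 40.6%. A match is a description of letters and not a binding site.

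Total expected counts ran from 36.274 to 71.626 in units of 1000000 (median 50.054), and levels are given as counts per 1000000 counts (CPM) on TMM-scaled library sizes. All 12 colon epithelium markers passed the filter, with a summed level of 9842 to 13529 CPM. PTPRC and CD3E of leukocytes, COL1A2, DCN and PDGFRB of fibroblasts, VWF and CDH5 of endothelium, and ALB, APOA2 and CYP2E1 of hepatocytes were under 1 CPM in every library. The leukocyte markers CD14 (2.69 to 4.99 CPM) and CD68 (4.26 to 8.16 CPM) were above 1 CPM in every library. The summed markers ranged from 0.959 to 1.73 CPM for fibroblasts, up to 2.25 CPM for endothelium and from 283 to 404 CPM for hepatocytes. Nearly all of the hepatocyte sum was SERPINA1, the remaining marker of that list, at 282 to 404 CPM. COL1A1 of fibroblasts reached 1.69 CPM and PECAM1 of endothelium 2.22 CPM. Mitochondrial rRNA took 12.86% and 9.408% of counts in the 2 Banhasasim-tang 500 µg/mL libraries, 1.901% and 1.914% in those at 100 µg/mL and 0.9135% to 1.383% elsewhere. Vehicle replicate 1 lay apart from all others on the first principal component (12.19% of variance).

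Compared per kb of annotated exon, ABCC3 was the highest of these genes in HT29 cells, and there was almost no NR1I2. The same 2 genes were highest and lowest without division by length, at medians of 508 and 0.141 CPM. Length here is the union of all annotated exons of a gene, from 5044 bases for ABCG2 to 11441 for ABCC5. It can exceed the length of the transcripts expressed, so the order of the genes in between may reflect the annotation. The median over the 30 libraries, in CPM per kb of exon, was 52.9 for ABCC3 (range 45.8 to 67.3), 19.1 for ABCG2 (14.9 to 24.0), 14.5 for ABCC1 (12.6 to 16.2), 13.1 for CYP3A5 (12.2 to 15.5), 12.6 for ABCC4 (10.2 to 14.1) and 1.48 for ABCC5 (1.09 to 1.64). ABCG2, ABCC1, CYP3A5 and ABCC4 overlapped with their neighbours in this order, while ABCC3 lay above and ABCC5 below all of them in every library. ABCB1 followed at 0.184 (0.123 to 0.231) and ABCC2 at 0.117 (0.0791 to 0.191), which also overlapped, with 29 to 80 and 29 to 81 counts per library. NR1I2 had a median of 0.0262 CPM per kb, from 2 to 19 counts per library, so only large changes of the receptor could be seen. CYP3A4, the main PXR-induced enzyme of liver and gut, had 0 to 7 counts, and NR1I3, which encodes the related receptor CAR, had 0 to 9, and neither passed the filter. RXRA, the partner with which PXR binds DNA, was at a median of 17.0 CPM per kb.

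**Figure D1:**
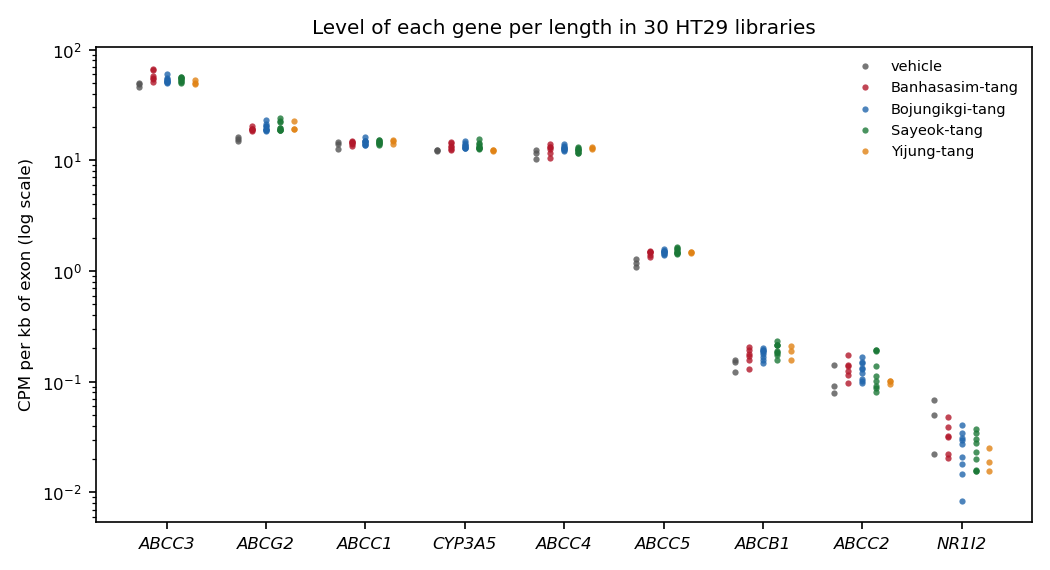
Level of each gene in CPM per kb of exon (log axis) in the 30 libraries, 1 point per library, coloured by vehicle or extract. ABCC3 is highest at a median of 52.9 and NR1I2 lowest at 0.0262.

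The members lie on 7 chromosomes (GRCh38, GENCODE 29), and all are protein-coding genes. ABCB1 (ENSG00000085563) spans chr7:87503633-87713323 and CYP3A5 (ENSG00000106258) chr7:99648194-99680026, both on the minus strand. ABCC1 (ENSG00000103222) spans chr16:15949577-16143074, ABCC2 (ENSG00000023839) chr10:99782640-99852594 and ABCC3 (ENSG00000108846) chr17:50634777-50692252, all 3 on the plus strand. ABCC4 (ENSG00000125257) spans chr13:95019829-95301475, ABCC5 (ENSG00000114770) chr3:183919934-184018015 and ABCG2 (ENSG00000118777) chr4:88090264-88231322, all 3 on the minus strand. NR1I2 (ENSG00000144852) spans chr3:119780484-119818485 on the plus strand.

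The first question was how the members depended on dose within an extract, comparing 500 with 20 µg/mL, in which no vehicle library enters. Calls are those of edgeR's quasi-likelihood test, with p-values adjusted over all tested genes by the Benjamini-Hochberg method and a limit of 0.05. At the high dose ABCC3 rose and ABCC4 fell with Banhasasim-tang, ABCG2 rose with Bojungikgi-tang, and ABCG2 and ABCC2 rose with Sayeok-tang, all but ABCC2 by 1.26-fold or less. The members called were 2 of 9 for Banhasasim-tang, where 7.82% of all tested genes were called, 1 of 9 for Bojungikgi-tang (1.76% of genes) and 2 of 9 for Sayeok-tang (3.18% of genes). The median log2 change of the 9 was -0.04, 0.06 and 0.13 in that order, against 0.00 over all tested genes in each.

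ABCG2, the luminal exporter of urate, sulfates and many drugs, was at 111, 121 and 115 CPM in the 3 Sayeok-tang libraries at 500 µg/mL. At 20 µg/mL it was at 94.5, 95.0 and 99.6 CPM, so the groups did not overlap, as for 22% of all tested genes. The log2 fold change was 0.26 ± 0.049 (SE, n = 3 and 3), a 1.20-fold rise (edgeR adjusted p = 0.00149), and it held in all 14 alternative analyses, with adjusted p up to 0.0187. With Bojungikgi-tang ABCG2 was at 103, 116 and 108 CPM at 500 µg/mL. At 20 µg/mL its 3 values were 95.7, 95.1 and 93.4 CPM, again all lower, a separation seen for 18.7% of all genes. This change was 0.20 ± 0.048 (edgeR adjusted p = 0.0221), and the call was lost when any 1 of 5 of the 6 libraries was left out (all but replicate 1 at 500 µg/mL), with log2 changes from 0.15 to 0.23 over all alternatives. With Banhasasim-tang ABCG2 was at 92.4 and 97.0 CPM at 500 µg/mL and at 93.8 and 96.8 CPM at 20 µg/mL. The values overlapped, with a log2 difference of -0.01 (95% interval -0.13 to 0.11).

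ABCC3, which exports glucuronides on the blood side of enterocytes, was at 647 and 629 CPM in the Banhasasim-tang libraries at 500 µg/mL. It was at 559 and 522 CPM at 100 µg/mL and at 530 and 487 CPM at 20 µg/mL, so both high-dose libraries lay above the other 4. With 2 libraries each, 52.7% of all genes separated 500 from 20 µg/mL. The change from 20 to 500 µg/mL was 0.33 ± 0.060 (log2, SE, n = 2 and 2), 1.26-fold (edgeR adjusted p = 6.64e-04), and it held in all 12 alternatives, with adjusted p up to 0.0384. ABCC3 was called also with the mitochondrially encoded genes left out of the table. Bojungikgi-tang gave 524, 577 and 529 CPM at 500 µg/mL and 484, 496 and 487 CPM at 20 µg/mL. Those groups did not overlap, but the difference of 0.15 ± 0.049 was not called (edgeR adjusted p = 0.13). For Sayeok-tang the difference was 0.08 (95% interval -0.02 to 0.18).

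ABCC2, the luminal exporter of glutathione and glucuronide conjugates, was a low gene, with 1.50, 1.49 and 1.50 CPM at 500 µg/mL of Sayeok-tang. At 100 µg/mL it was at 0.693, 0.882 and 0.711 CPM and at 20 µg/mL at 0.795, 0.627 and 1.08 CPM, all below the high dose. It rose by 0.87 ± 0.201 from 20 to 500 µg/mL (log2, SE), 1.82-fold (edgeR adjusted p = 0.0133), and by 0.97 ± 0.200 from 100 to 500 µg/mL (edgeR adjusted p = 0.00763). The 500 against 20 call was lost without Sayeok-tang 20 µg/mL replicate 1 or replicate 2, with adjusted p up to 0.129. Its differences were 0.41 ± 0.245 with Banhasasim-tang and 0.51 ± 0.198 with Bojungikgi-tang, with no overlap of groups in either and no call (edgeR adjusted p = 0.372 and 0.23).

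ABCC4, the exporter of cyclic nucleotides and prostaglandins, was at 89.8 and 101 CPM with Banhasasim-tang at 500 µg/mL. At 20 µg/mL it was at 114 CPM in both libraries and at 100 µg/mL at 110 and 121 CPM, so the high dose was lowest in both. It fell by 0.25 on the log2 scale from 20 to 500 µg/mL (SE 0.079, edgeR adjusted p = 0.0463). The call was lost in 4 of 12 alternatives, 3 of them without Banhasasim-tang 500 µg/mL replicate 2, 20 µg/mL replicate 2 or 20 µg/mL replicate 3, with adjusted p up to 0.479. The differences with Bojungikgi-tang and Sayeok-tang were 0.01 (95% interval -0.13 to 0.14) and -0.10 (-0.23 to 0.04).

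The other 5 members gave no call between 500 and 20 µg/mL. ABCC5 differed on the log2 scale by -0.04 with Banhasasim-tang (95% interval -0.19 to 0.11), 0.04 with Bojungikgi-tang (-0.08 to 0.16) and 0.13 with Sayeok-tang (0.01 to 0.26), where the groups did not overlap (edgeR adjusted p = 0.296). In the same order ABCC1, the broad exporter of glutathione conjugates, differed by 0.00, 0.14 and 0.05. ABCB1 was lower at the high dose by -0.46 ± 0.179, -0.10 ± 0.139 and -0.27 ± 0.142, with edgeR adjusted p of 0.164, 0.844 and 0.499. Its Banhasasim-tang values were 0.760 and 0.917 CPM at 500 µg/mL against 1.12 and 1.18 CPM at 20 µg/mL. CYP3A5 was at 83.2 and 84.8 CPM with Banhasasim-tang at 500 µg/mL and at 98.2 and 88.9 CPM at 20 µg/mL, a difference of -0.15 ± 0.058 (edgeR adjusted p = 0.11). With Sayeok-tang CYP3A5 was at 95.9, 94.7 and 105 CPM against 89.5, 87.9 and 91.5 CPM, a difference of 0.13 ± 0.047 (edgeR adjusted p = 0.144). NR1I2 differed by -0.19, -0.44 and 0.13, with SEs of 0.545, 0.506 and 0.527, each larger than the difference.

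**Figure D2:**
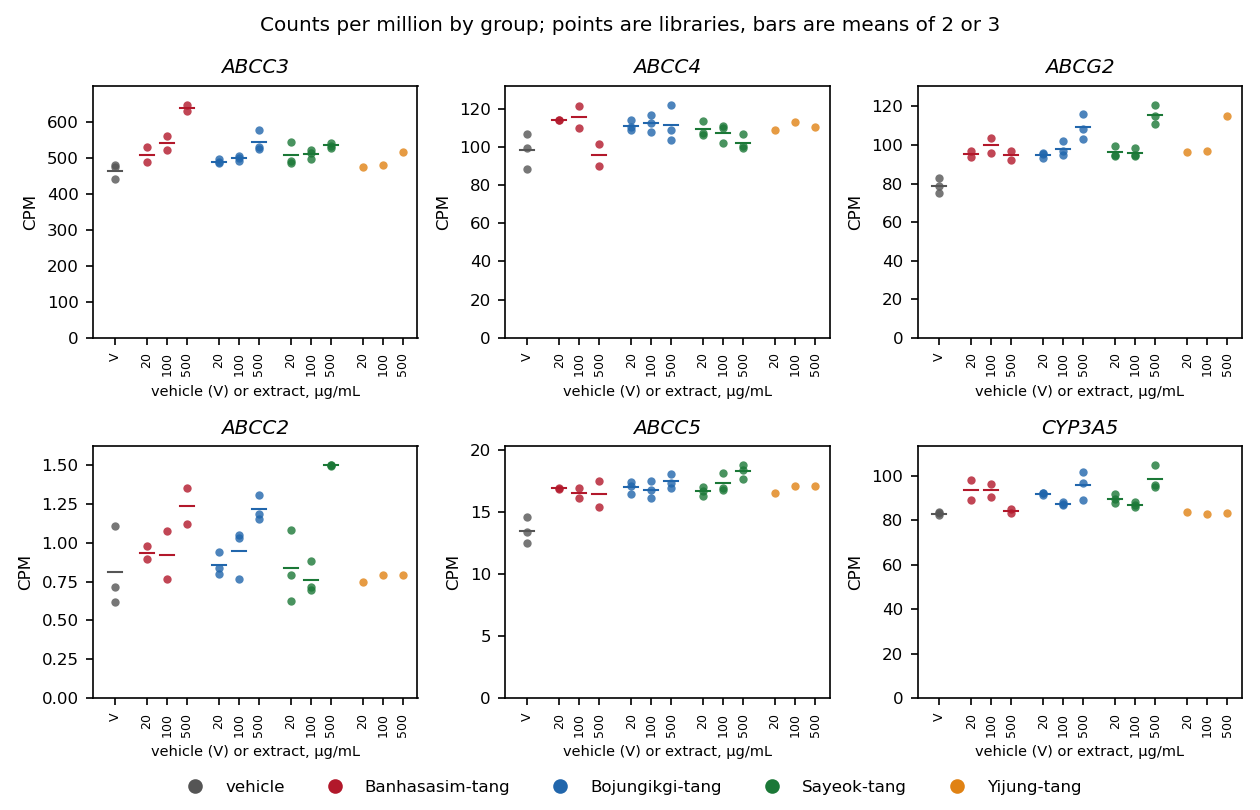
CPM of ABCC3, ABCC4, ABCG2, ABCC2, ABCC5 and CYP3A5 (vertical axes from 0) for the vehicle (V) and each extract at 20, 100 and 500 µg/mL. Points are libraries and bars are means of 2 or 3. ABCC3 is highest at Banhasasim-tang 500 µg/mL, at 629 and 647 CPM.

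**Figure D3:**
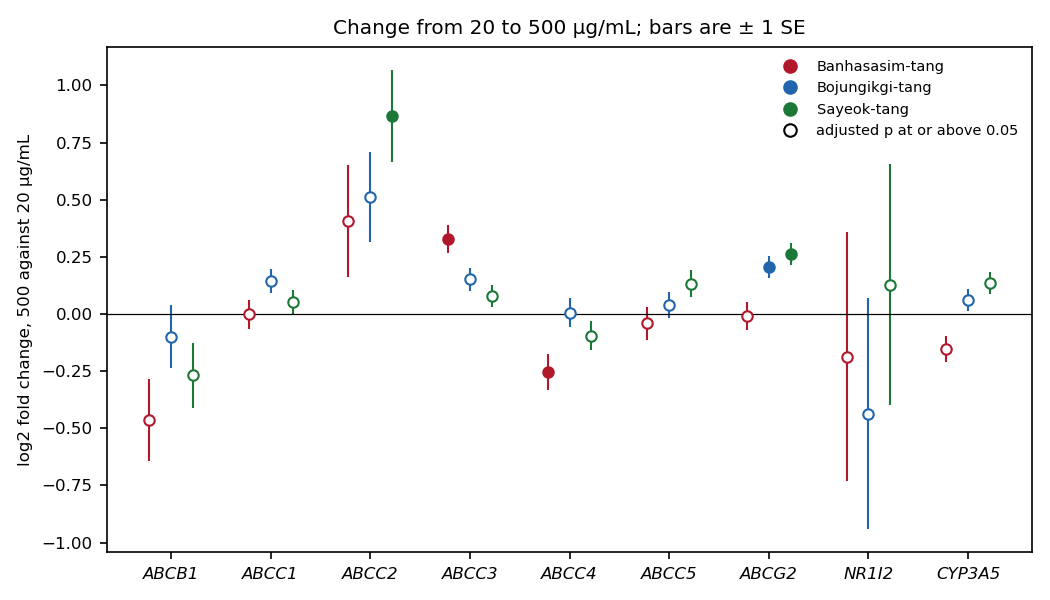
Log2 fold change of each gene between 500 and 20 µg/mL with ± 1 SE, for the 3 extracts with replicates. Filled points have an adjusted p under 0.05. ABCC3 and ABCC4 are filled for Banhasasim-tang, ABCG2 for Bojungikgi-tang, and ABCC2 and ABCG2 for Sayeok-tang.

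The middle dose lay near the low one. Between 100 and 20 µg/mL 0 of 9 members were called in any of the 3 extracts by edgeR or DESeq2, where 0.0852%, 0.0106% and 0% of all genes were called. At an unadjusted edgeR p under 0.05 there were also 0 of 9, beside 515, 435 and 887 of all 18783 genes. Between 500 and 100 µg/mL Banhasasim-tang gave calls for ABCC3 (0.24 ± 0.060, edgeR adjusted p = 0.0191) and ABCC4 (-0.27 ± 0.079, adjusted p = 0.0459), beside 4.16% of all genes. Sayeok-tang gave calls for ABCC2, as above, and ABCG2 (0.27 ± 0.048, edgeR adjusted p = 0.00172), beside 1.73% of genes. Its CYP3A5 difference of 0.18 ± 0.047 was not called (edgeR adjusted p = 0.0518), although the groups did not overlap and 6 alternatives called it, with adjusted p down to 0.0115 by DESeq2. Bojungikgi-tang gave 0 of 9 by edgeR and by DESeq2, beside 0.453% of genes. At an unadjusted edgeR p under 0.05 Bojungikgi-tang gave 3 of 9, beside 1683 of all 18783 genes. The Banhasasim-tang pair was lost without 500 µg/mL replicate 2 or 100 µg/mL replicate 3, and the ABCC2 call without Sayeok-tang 100 µg/mL replicate 1 (adjusted p = 0.0554).

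Extracts were then compared with each other at 500 µg/mL. Banhasasim-tang left more ABCC3 and less ABCG2 and CYP3A5 messenger RNA than either of the other replicated extracts. Against Bojungikgi-tang 4 of 9 members were called (12.2% of all genes were), with ABCC3 higher by 0.23 ± 0.055, and ABCG2 at -0.21 ± 0.054, CYP3A5 at -0.19 ± 0.053 and ABCC4 at -0.22 ± 0.072 (edgeR adjusted p = 0.00676, 0.0154, 0.0211 and 0.0434). Against Sayeok-tang 3 of 9 were called (4.31% of all genes), with ABCC3 at 0.26 ± 0.055, ABCG2 at -0.29 ± 0.055 and CYP3A5 at -0.23 ± 0.053 (edgeR adjusted p = 0.00483, 0.00157 and 0.00985). The libraries of the groups overlapped for none of these 7 differences, but they were also apart for 38.8% of all genes against Bojungikgi-tang and 32.6% against Sayeok-tang. Bojungikgi-tang and Sayeok-tang differed in 0 of 9 members by edgeR (0.24% of all genes) and by DESeq2. At an unadjusted edgeR p under 0.05 it was also 0 of 9, beside 2124 of all 18783 genes. The intervals were -0.18 to 0.02 for ABCG2 and -0.08 to 0.13 for ABCC3. All 7 calls against Banhasasim-tang were lost when its 500 µg/mL replicate 2 was left out, which leaves 1 library there, with log2 differences of the same sign. Leaving out Bojungikgi-tang 500 µg/mL replicate 2 also ended the ABCG2, CYP3A5 and ABCC4 calls, and CYP3A5 and ABCC4 were each lost without other single libraries too. The 2 Banhasasim-tang libraries at 500 µg/mL are those with high mitochondrial rRNA, whose part in these differences was not tested beyond leaving out the mitochondrially encoded genes, which ended the ABCC4 call and none of the others.

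Whether the dose change itself differed between extracts was tested by interaction terms. None of the 9 members was called by edgeR for Banhasasim-tang against Bojungikgi-tang (2.06% of all genes were), Banhasasim-tang against Sayeok-tang (1.04%) or Bojungikgi-tang against Sayeok-tang (0.0266%). At an unadjusted edgeR p under 0.05 there were 4, 3 and 0 of 9 in that order, beside 2880, 1768 and 868 of all 18783 genes. DESeq2 called 0, 2 and 0 members. The largest differences in dose change were those of CYP3A5 (-0.29 ± 0.075, edgeR adjusted p = 0.0593) and ABCG2 (-0.27 ± 0.077, adjusted p = 0.102), Banhasasim-tang less Sayeok-tang, among members above 10 CPM. The 2 members DESeq2 called were these, with adjusted p of 0.012 for CYP3A5 and 0.0365 for ABCG2. So ABCG2 passed the test with Sayeok-tang and not with Banhasasim-tang, but a difference between these dose changes was called by only 1 of the 2 tools.

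Against the vehicle, ABCG2 and ABCC5 were higher with every extract and dose. All 9 comparisons share the same 3 vehicle libraries, 1 of which lay apart, so they are not independent of each other. ABCG2 was at 75.05, 78.7 and 82.7 CPM in the vehicle and at 92.4 to 121 CPM in the 27 extract libraries. ABCC5 was at 12.5, 14.6 and 13.4 CPM in the vehicle and at 15.3 to 18.8 CPM in the extract libraries. Neither gene overlapped with the vehicle in any extract library, which was true of 2.94% of all tested genes in this direction and 3.66% in the other. Both were called higher in 9 of 9 comparisons with replicates, as were 1.43% of all genes. With only the compared groups in the fit, 6 of the 9 ABCC5 calls and 3 of the 9 ABCG2 calls, all 3 with Banhasasim-tang, were lost.

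At 20 µg/mL ABCG2 was already 0.27 ± 0.054, 0.27 ± 0.049 and 0.29 ± 0.049 above the vehicle on the log2 scale (Banhasasim-tang, Bojungikgi-tang and Sayeok-tang; edgeR adjusted p = 0.00263, 0.00131 and 4.60e-04). At 500 µg/mL the differences were 0.26 ± 0.054, 0.47 ± 0.049 and 0.55 ± 0.049 (edgeR adjusted p = 0.00123, 8.83e-07 and 5.95e-08). For ABCC5 they were 0.32 ± 0.066, 0.33 ± 0.059 and 0.30 ± 0.060 at 20 µg/mL and 0.28 ± 0.066, 0.37 ± 0.059 and 0.43 ± 0.060 at 500 µg/mL. The Sayeok-tang calls of both genes at 500 and 20 µg/mL held in all alternatives. The ABCC5 call with Banhasasim-tang at 100 µg/mL was lost without vehicle replicate 1 or without replicate 2 or 3 of its own group (edgeR adjusted p up to 0.15). Both Banhasasim-tang calls at 20 µg/mL were lost without replicate 3 of that group. Without Banhasasim-tang 500 µg/mL replicate 3 the ABCC5 difference fell to 0.18 and was not called (edgeR adjusted p = 0.211).

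At 500 µg/mL the members called against the vehicle were 3 of 9 for Banhasasim-tang (15.3% of all genes), 8 of 9 for Bojungikgi-tang (29.7%) and 5 of 9 for Sayeok-tang (16.6%). ABCC3, at 440, 478 and 474 CPM in the vehicle, was higher with all 3, by 0.46 ± 0.055, 0.23 ± 0.049 and 0.20 ± 0.049 (edgeR adjusted p = 1.11e-06, 0.00158 and 0.00649). ABCC2 rose by 0.89 ± 0.199 with Sayeok-tang (edgeR adjusted p = 0.00342) and by 0.59 ± 0.201 with Bojungikgi-tang (0.0276). With Banhasasim-tang ABCC2 differed by 0.62 ± 0.224 without overlap of groups and without a call (edgeR adjusted p = 0.0643), but it was called with the stricter filter (0.0493) and without vehicle replicate 3 (0.00753). CYP3A5 rose with Sayeok-tang and Bojungikgi-tang by 0.25 ± 0.047 and 0.21 ± 0.047 (adjusted p = 9.50e-04 and 0.0022). CYP3A5 was tight in the vehicle, at 83.5, 83.0 and 82.3 CPM, and Banhasasim-tang at 500 µg/mL was 0.02 ± 0.053 from it. Bojungikgi-tang alone also gave calls for ABCC1 (0.16 ± 0.052) and ABCC4 (0.18 ± 0.064), with edgeR adjusted p of 0.0202 and 0.0337. Its count of 8 fell to 4 without vehicle replicate 1 or without Bojungikgi-tang 500 µg/mL replicate 2 and to 5 without vehicle replicate 2, and the first 2 of these libraries lay at the 2 ends of the first principal component. ABCC3 with Sayeok-tang was lost without vehicle replicate 1, and ABCC2 with Bojungikgi-tang without any 1 of 4 of the 6 libraries (vehicle replicates 1 and 2, extract replicates 2 and 3).

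NR1I2 was the only member lower than the vehicle in a call, with Bojungikgi-tang at 500 µg/mL, and it rested on few reads. The vehicle had 15, 19 and 6 counts (0.369, 0.268 and 0.119 CPM) and the 3 extract libraries 4, 2 and 9 counts (0.0788, 0.0452 and 0.159 CPM). The groups overlapped, and the log2 difference was -1.32 ± 0.464 (edgeR adjusted p = 0.0341). The call was lost without vehicle replicate 1, vehicle replicate 2, or Bojungikgi-tang 500 µg/mL replicate 1 or 2 (adjusted p up to 0.174). In the other 8 comparisons NR1I2 differed by -1.13 to -0.34, with no call. Without vehicle replicate 3, the vehicle library with 6 counts, it was called lower with Bojungikgi-tang at 20 µg/mL and with Sayeok-tang at 20 and 500 µg/mL. Those log2 differences were -1.20, -1.45 and -1.32 (edgeR adjusted p = 0.0427, 0.0229 and 0.0387).

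ABCB1, the best known target of PXR among the exporters, was at 0.713, 0.874 and 0.909 CPM in the vehicle. With Sayeok-tang at 20 µg/mL it was at 1.23, 1.24 and 1.24 CPM, 0.56 ± 0.143 higher (edgeR adjusted p = 0.0105). This was its only call of 9, beside 18.9% of all genes called in this comparison. The call was lost in 3 of 14 alternatives, namely without vehicle replicate 1, without a low count filter and with only the groups compared. The stricter filter called ABCB1 higher also with Sayeok-tang at 100 µg/mL (edgeR adjusted p = 0.0368) and Bojungikgi-tang at 20 µg/mL (0.0393). It differed by 0.29 ± 0.147 at 500 µg/mL of Sayeok-tang and by 0.00 ± 0.167 at 500 µg/mL of Banhasasim-tang. Over the 9 comparisons ABCC3 and ABCC4 were called higher in 4 each, CYP3A5 in 5, ABCC2 in 2 and ABCC1 in 1.

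At the lower doses the members called against the vehicle were 5 and 4 of 9 for Banhasasim-tang at 100 and 20 µg/mL (11.9% and 12.7% of all genes), 3 and 3 for Bojungikgi-tang (15.8% and 18.3%), and 2 and 3 for Sayeok-tang (14% and 18.9%). Leaving out 1 library took the Banhasasim-tang counts to between 1 and 4 at either dose, and with only the compared groups in the fit both were 0. ABCC4 and CYP3A5 were called higher with Banhasasim-tang at 20 and 100 µg/mL and not at 500 µg/mL. ABCC4, at 88.5, 99.6 and 107 CPM in the vehicle, was 0.21 ± 0.071 and 0.23 ± 0.071 above it at 20 and 100 µg/mL (edgeR adjusted p = 0.0491 and 0.035), and differed by -0.04 ± 0.072 at 500 µg/mL. CYP3A5 was 0.17 ± 0.053 above the vehicle at each of the 2 lower doses (edgeR adjusted p = 0.0316 and 0.0352). All 4 of these calls were lost without vehicle replicate 1 and without vehicle replicate 2. ABCC3 rose with Banhasasim-tang at 100 µg/mL by 0.22 ± 0.055 (edgeR adjusted p = 0.0122), a call lost without vehicle replicate 1 or Banhasasim-tang 100 µg/mL replicate 2, and differed by 0.13 ± 0.055 at 20 µg/mL.

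**Figure D4:**
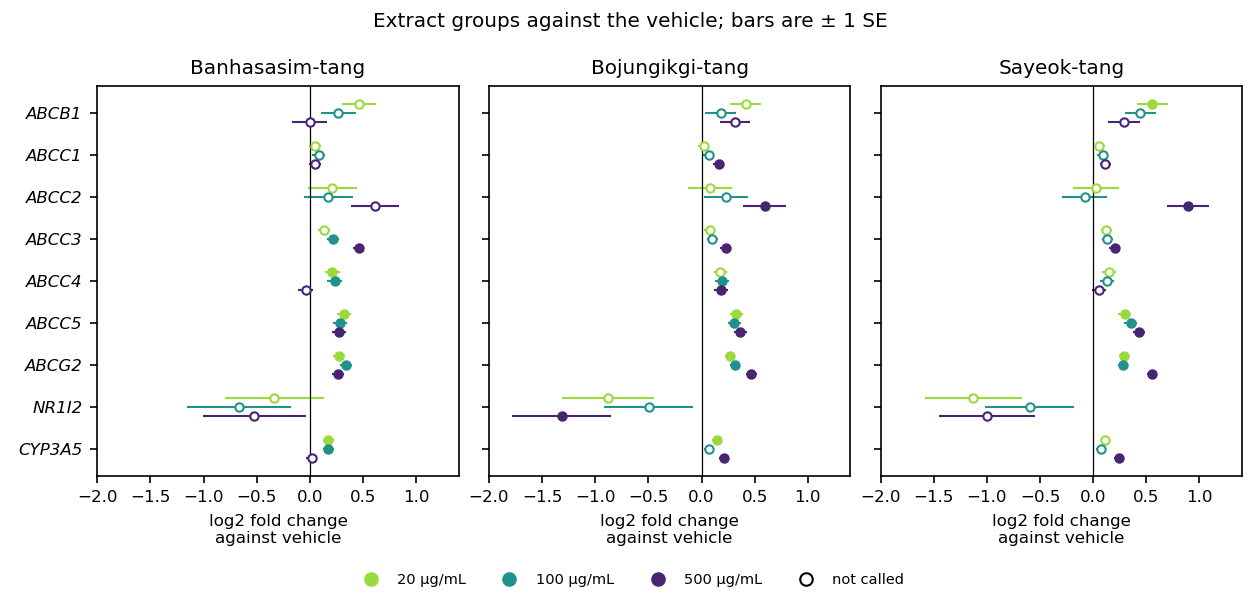
Log2 fold change of each gene against the vehicle with ± 1 SE at 20, 100 and 500 µg/mL, 1 panel for each extract with replicates. Filled points have an adjusted p under 0.05, and all 3 panels use the same 3 vehicle libraries. ABCC5 and ABCG2 are filled at every dose in every panel.

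A test over all 10 groups with replicates called 6 of 9 members, beside 20.8% of all genes. Smallest was the adjusted p of ABCG2 (1.43e-06 in edgeR), followed by ABCC3 (1.09e-04), ABCC5 (0.00121), CYP3A5 (0.00527), ABCC2 (0.0074) and ABCC4 (0.0422). ABCB1 (0.0665), ABCC1 (0.33) and NR1I2 (0.393) were not called. The ratio of the highest to the lowest group mean was 2.67 for NR1I2, which rests on 2 to 19 counts per library, 1.96 for ABCC2, 1.48 for ABCB1, 1.47 for ABCG2, 1.37 for ABCC3, 1.35 for ABCC5, 1.21 for ABCC4, 1.19 for CYP3A5 and 1.12 for ABCC1.

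Yijung-tang had 1 library per dose, so its values carry no test. ABCG2 was at 115, 97.0 and 96.2 CPM at 500, 100 and 20 µg/mL, all above the vehicle, with log2 ratios to the vehicle mean of 0.55, 0.30 and 0.29 (on CPM plus 0.05). The high-dose value lay within the range of the Sayeok-tang libraries at that dose. ABCC5 was at 17.0, 17.1 and 16.5 CPM, ratios of 0.34, 0.34 and 0.29. ABCC2 stayed at 0.793, 0.793 and 0.744 CPM, inside the vehicle range, and ABCC3 was at 515, 478 and 474 CPM, outside it only at 500 µg/mL. CYP3A5 was at 83.2, 82.6 and 83.5 CPM, within 0.01 of the vehicle on the log2 scale. Single libraries lay outside the vehicle range for 63.1%, 63.5% and 61.5% of all genes.

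The wider drug-response genes gave the setting at 500 against 20 µg/mL. In these comparisons 7.82%, 1.76% and 3.18% of all genes were called with Banhasasim-tang, Bojungikgi-tang and Sayeok-tang. Of 18 tested partners and targets of PXR and CAR, 3 were higher and 0 lower with Banhasasim-tang, 1 and 0 with Bojungikgi-tang and 2 and 1 with Sayeok-tang, with list medians of 0.00, 0.05 and -0.05. ALAS1, which starts haem synthesis, rose by 0.50 ± 0.054 with Banhasasim-tang (edgeR adjusted p = 3.64e-07), from 51.1 to 72.4 CPM on average. It differed by 0.03 ± 0.045 with Bojungikgi-tang and 0.14 ± 0.045 with Sayeok-tang, without a call. UGT1A1, a glucuronosyltransferase that shares exons with its sister genes so that its counts are uncertain, was called higher with all 3, by 0.41, 0.45 and 0.39. TSKU rose by 0.42 with Banhasasim-tang and 0.19 with Sayeok-tang (edgeR adjusted p = 8.62e-05 and 0.0466), and NCOA1, a nuclear receptor coactivator, was called lower with Sayeok-tang, at -0.29 (adjusted p = 0.0476). With Banhasasim-tang NCOA1 differed by -0.31 ± 0.099 without a call (edgeR adjusted p = 0.0594).

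Of 26 other ABC transporters tested, 3 were higher and 3 lower with Banhasasim-tang, 2 and 0 with Bojungikgi-tang and 2 and 1 with Sayeok-tang, with list medians of 0.02, -0.01 and -0.03. These counts, and those of the uptake carriers below, stand beside 7.82%, 1.76% and 3.18% of all genes called. ABCG1, a sterol exporter, was called higher with all 3, by 1.13 ± 0.097, 0.37 ± 0.081 and 0.85 ± 0.081 (edgeR adjusted p = 5.02e-09, 0.0128 and 2.52e-07). ABCB6, a porphyrin transporter, was also called higher with all 3, by 0.30, 0.26 and 0.30. CFTR, the chloride channel of the ABCC branch, fell by 0.53 with Banhasasim-tang and by 0.33 with Sayeok-tang (edgeR adjusted p = 1.34e-05 and 0.00131). ABCA1, the other main sterol exporter, fell by 0.57 with Banhasasim-tang (edgeR adjusted p = 0.0012). Among 16 uptake carriers, 1 was higher and 1 lower with Banhasasim-tang, 1 and 0 with Bojungikgi-tang and 2 and 0 with Sayeok-tang. SLC22A3, an organic cation carrier, was called higher in all 3, by 1.14, 0.57 and 0.29.

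Targets of NRF2 and AhR, the factors whose DNA cores were searched for above, were counted the same way, beside the same 7.82%, 1.76% and 3.18% of all genes. Of 20 NRF2 targets 19, 12 and 17 were called higher and 0 lower with Banhasasim-tang, Bojungikgi-tang and Sayeok-tang, with medians of 0.58, 0.26 and 0.42. AKR1C2, a ketosteroid reductase, rose by 1.50, 0.73 and 1.56, and SLC7A11, the cystine importer, by 1.21, 0.54 and 0.55, each called in all 3. Of 6 AhR targets tested 5, 5 and 4 were called higher. CYP1A1, the classic AhR-induced oxidase, rose from 1.39 to 94.8 CPM with Banhasasim-tang (6.11 ± 0.172, edgeR adjusted p = 1.16e-18), from 0.407 to 2.81 CPM with Bojungikgi-tang and from 0.423 to 1.24 CPM with Sayeok-tang. ABCG2 differed by -0.01 between the same Banhasasim-tang doses, and at 20 µg/mL it was already 0.27 above the vehicle. Whether AhR or NRF2 acted on any member was not tested.

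The genes whose levels ran most like those of the 3 members with the smallest p over all groups were named from 10520 genes at 5 CPM or more, by Pearson's r of log2 CPM over the 30 libraries, which share groups, depth and normalisation. For ABCG2 they were TMED5 (r = 0.903), FAM135A (0.898) and PDK4 (0.894), and without the vehicle libraries these were 0.796, 0.811 and 0.824. For ABCC3 they were ECE1 (0.905), RAB15 (0.896) and XPOT (0.886), and without the Banhasasim-tang 500 µg/mL libraries 0.822, 0.841 and 0.783. For ABCC5 they were MTURN (0.865), ACSL3 (0.857) and ZC3H11A (0.839), which dropped to 0.406, 0.566 and 0.357 without the vehicle. Pairs of members ranged over the 30 libraries from 0.745 for ABCG2 and ABCC5 to -0.557 for ABCG2 and NR1I2, which had few counts. Next to the highest were ABCC1 and ABCG2 at 0.645, ABCB1 and ABCC4 at 0.613 and ABCG2 and CYP3A5 at 0.612. ABCC3 and ABCC4 were at -0.113. These pairs were not recomputed without the vehicle, from which ABCG2 and ABCC5 were apart in every extract library.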

How the data were processed

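The authors deposited 1 table of expected counts per gene, which RSEM estimates from reads. The submitters' processing notes list STAR 2.7.3a, RSEM 1.3.3, Trim Galore 0.6.5 and FastQC 0.11.9, and the build GRCh38. Annotation version and strandedness were not given in the sources used here. The 30 columns of these samples were used, and 240 others in the table were not. As 25.48% of values above 0 had decimals, counts were rounded. Symbols matched 56558 IDs (93.21%).

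Low genes were removed with filterByExpr (minimum count 10). After TMM scaling, edgeR 4.0.16 under R 4.3.3 estimated a mean for each group, with all 30 libraries sharing the dispersion (17 residual degrees of freedom, biological coefficient of variation 6.38%). Two-sided quasi-likelihood tests were adjusted within each comparison. An SE is the size of the log2 change over the root of its F statistic. For ABCB1 the p-values were larger than such SEs imply, so its SEs understate the uncertainty. With Bojungikgi-tang at 500 µg/mL against the vehicle its F was 4.73 and its unadjusted edgeR p 0.0709. The 95% interval from the SE was 0.02 to 0.61. The code was tested on simulated counts with 1 dispersion for all genes. Between 500 and 20 µg/mL it recovered 22.4% (Banhasasim-tang) and 46.3% (Sayeok-tang) of 1.25-fold changes. Of 2-fold changes it recovered 78.8% and 77.3%.

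The members and lists were chosen with earlier results of these data known. For each list, the 4 genes with the smallest p between 500 and 20 µg/mL and a mean of at least 1 CPM could be named. For the 3 members with the smallest p over all groups, the 3 most similar genes were named. Alternatives were RLE factors, other filters, mitochondrial genes left out, no rounding, only the groups compared, DESeq2 1.42.0, a replicate block and each library left out. Hot water extracts and wortmannin of the series text were not analysed here.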

Additional observations from a re-analysis of the deposited data

How the results depend on the processing

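Of 52 calls of a member in a comparison, 15 held under every alternative run, among them ABCC3 for Banhasasim-tang and ABCG2 for Sayeok-tang at 500 against 20 µg/mL. No member difference that was called in the values reported or under an alternative changed sign between them. Differences called in neither were not checked for a change of sign. With only the compared groups in the fit, the members called fell to 1 for Banhasasim-tang and 0 for Bojungikgi-tang at 500 against 20 µg/mL, to 1 each for both at 500 µg/mL against the vehicle, and to 0 for Banhasasim-tang against Bojungikgi-tang at 500 µg/mL. For Banhasasim-tang it also took 5 and 4 members to 0 at 100 and 20 µg/mL against the vehicle, with 39 and 38 genes in place of 2229 and 2379, and 2 members to 0 at 500 against 100 µg/mL, with 304 genes in place of 781. This fit has fewer samples, and over all genes it called 54 in place of 331 for Bojungikgi-tang 500 against 20 µg/mL, 648, 189 and 1264 in place of 2870, 5580 and 3117 for the 3 extracts at 500 µg/mL against the vehicle, and 132 in place of 2290 for Banhasasim-tang against Bojungikgi-tang at 500 µg/mL. Without a low count filter, which tests more genes, Bojungikgi-tang 500 against 20 µg/mL gave 0 members, with 606 genes in all. For Bojungikgi-tang against Sayeok-tang at 500 µg/mL, 45 genes became 593 without the filter, 95 by DESeq2 and 2 with only these groups. Over all 10 groups 3907 genes became 6007 without the filter, and for the dose change of Banhasasim-tang 386 became 963 against Bojungikgi-tang and 196 became 327 against Sayeok-tang. For the dose change of Banhasasim-tang against Sayeok-tang, DESeq2 called 2 members and the stricter filter 1, against 0 in the values reported.

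Leaving out 1 library at a time gave 1 to 2 members at 500 against 20 µg/mL for Banhasasim-tang and for Sayeok-tang, 0 to 1 for Bojungikgi-tang, and against the vehicle at 500 µg/mL 2 to 4, 4 to 8 (Bojungikgi-tang) and 4 to 6 (Sayeok-tang). Between extracts at 500 µg/mL it gave 0 to 4 for Banhasasim-tang against Bojungikgi-tang, 0 to 3 against Sayeok-tang and 0 for Bojungikgi-tang against Sayeok-tang. For dose changes it gave 0 to 1, and over all groups 5 to 7. Where a group was left with 1 library, that library is assumed to vary like the others. For Yijung-tang, a pseudocount of 0.5 CPM moved the NR1I2 ratio to -0.37 at 500 µg/mL and -0.32 at 20 µg/mL. Plain library sizes moved the CYP3A5 ratios to 0.04, 0.05 and 0.06. The cause of these shifts was not tested.

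Libraries share replicate numbers, but in no comparison with 3 pairs did every same-number pair correlate above 0.1, so the numbers were not taken to pair libraries. With a replicate block, the members called were 2, 1 and 2 at 500 against 20 µg/mL (Banhasasim-tang, Bojungikgi-tang, Sayeok-tang), as without it. The block ended the CYP3A5 call for Banhasasim-tang 100 µg/mL against the vehicle and added CYP3A5 for Sayeok-tang 500 against 100 µg/mL (adjusted p = 0.0488), ABCC3 for Sayeok-tang 100 and 20 µg/mL and ABCC4 for Bojungikgi-tang and Sayeok-tang 20 µg/mL against the vehicle. Apart from ABCC4 with Sayeok-tang, which otherwise gave a call only without vehicle replicate 3, each of these added calls was also made by DESeq2 and with the stricter filter. Depth limited NR1I2, ABCB1 and ABCC2 most.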
